A study of Mus musculus with 778 samples.

Results

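Lysine 4 of histone H3 (H3K4) is methylated by the KMT2 and SETD1 enzymes and demethylated, from its trimethylated form, by the KDM5 enzymes. The 10 genes described here are the 6 methyltransferases *Kmt2a*, *Kmt2b*, *Kmt2c*, *Kmt2d*, *Setd1a* and *Setd1b*, the 2 complex subunits *Dpy30* and *Wdr82*, and the 2 demethylases *Kdm5a* and *Kdm5b*, chosen by name out of 23201 genes in a single-cell RNA-seq count table. Most differences lay between the non-growing and the earliest growing oocytes, the step in which 3951 of all 8527 genes tested differed 2-fold or more. *Kdm5a* was 10.1-fold lower there and *Kdm5b* 3.66-fold lower, while *Kmt2c*, *Setd1a* and *Wdr82* were 2.47-fold, 2.78-fold and 2.76-fold higher. Under other weightings or depths of the cells the log2 ratio of *Setd1a* went from 1.48 to as low as 0.50, less than 2-fold. That lowest value rested on only 7 counts in the non-growing and 11 in the earliest growing oocytes. The log2 ratio of *Kmt2c* was just short of 2-fold with equal cell numbers (0.98). *Dpy30* was 1.89-fold higher, and more than 2-fold higher under all 7 alternatives of scaling, weighting or depth.

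KMT2 and SETD1 proteins share a catalytic SET domain and work inside large complexes. DPY30 belongs to the core module that all of these complexes contain, and WDR82 is found in the SETD1 complexes, which deposit much of the H3K4 trimethylation (H3K4me3) at active promoters. KMT2C and KMT2D are known for monomethylation at enhancers, and KMT2A and KMT2B for H3K4 methylation at selected promoters. The growing mouse oocyte is known for broad domains of H3K4me3 that build up away from promoters, and KMT2B is the enzyme required for most of that gain. KDM5A and KDM5B remove methyl groups from H3K4me3 and H3K4me2.

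All oocytes came from wild type female ICR mice, an outbred strain, and were picked singly from dissociated ovaries and assigned to 5 stages by diameter. Non-growing oocytes (NGO, under 20 μm, 46 cells) were taken from mice 3 to 4 days old. Growing oocytes of the classes GO1 (30 to 45 μm, 51 cells), GO2 (50 to 55 μm, 26 cells) and GO3 (60 to 65 μm, 44 cells) and fully-grown oocytes (FGO, over 70 μm, 56 cells) were taken from mice 3 to 4 weeks old, so that in every comparison with NGO the stage and the age of the mouse cannot be told apart. The 223 cells were sequenced in 4 libraries, which their labels call batches. The columns of the table do not give the library of a cell, so how the stages were spread over the batches is not known. Each stage was therefore 1 pooled sample with no replicate and no test between stages. The number of mice is not given in the sources used here.

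Counts were of unique molecular identifiers (UMIs), random tags that let copies of 1 cDNA molecule be counted once. A level is given as CPM, the UMIs of a gene summed over the cells of a stage per 1000000 UMIs of that stage, and is thus a share of the UMIs and not an amount of RNA per oocyte. Brackets hold 95% intervals, which cover counting error only. Calls of change required a difference of 2-fold or more and 10 CPM or more at the higher end. Stage totals lay between 24976634 and 64311908 UMIs. The 10 deepest cells held 80.4% of the UMIs of GO1 and 73.2% of those of GO2, against 42.6% to 49.7% elsewhere, and 24 of the 51 GO1 cells had fewer than 100000 UMIs. An average of the single-cell CPM values (the mean over cells), which weighs all cells equally, is therefore given where it differs from the sum. All 10 oocyte markers examined reached 10 CPM in every stage, together 14702 CPM or more. Granulosa markers summed to 14.9 to 38.8 CPM, stromal and theca markers to 1.05 to 8.65 CPM and blood and endothelial markers to 9.13 to 50.5 CPM. From NGO to GO1, the step with the most calls, the oocyte marker sum went from 28836 to 14702 CPM, the granulosa sum from 14.9 to 38.8, the stromal sum from 8.65 to 1.05 and the blood and endothelial sum from 9.13 to 39.3, of which *Pecam1* made up 4.60 and 37.6. Their part in the results was not tested.

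Promoter sequences are shown for *Kmt2c*, *Wdr82* and *Setd1a*, which were higher in GO1 than in NGO, and for *Kdm5b*, which was lower, so that the promoters of genes with opposite changes can be read side by side. They are the 250 bases before the RefSeq start in GRCm38.p6, read 5′ to 3′ on the strand of the gene, with GC boxes (GGGCGG on either strand) in capitals, at chr5:25498784-25499033 (minus strand), chr9:106170679-106170928 (plus strand), chr7:127777139-127777388 (plus strand) and chr1:134559928-134560177 (plus strand).
Kmt2c: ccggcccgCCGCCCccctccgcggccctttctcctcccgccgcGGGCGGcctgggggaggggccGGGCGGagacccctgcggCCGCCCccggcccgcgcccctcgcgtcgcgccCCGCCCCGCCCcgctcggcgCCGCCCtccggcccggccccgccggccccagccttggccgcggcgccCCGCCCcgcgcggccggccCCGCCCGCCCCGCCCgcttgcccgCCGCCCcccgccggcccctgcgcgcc
Wdr82: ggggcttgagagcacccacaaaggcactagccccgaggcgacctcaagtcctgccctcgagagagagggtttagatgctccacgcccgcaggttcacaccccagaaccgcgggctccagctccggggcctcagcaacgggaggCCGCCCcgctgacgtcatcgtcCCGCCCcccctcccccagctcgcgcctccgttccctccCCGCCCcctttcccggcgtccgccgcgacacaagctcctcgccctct
Setd1a: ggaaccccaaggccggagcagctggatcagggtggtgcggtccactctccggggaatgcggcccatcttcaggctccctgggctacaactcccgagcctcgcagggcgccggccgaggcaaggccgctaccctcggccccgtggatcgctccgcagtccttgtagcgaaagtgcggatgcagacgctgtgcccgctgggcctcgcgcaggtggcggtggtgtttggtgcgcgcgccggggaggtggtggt
Kdm5b: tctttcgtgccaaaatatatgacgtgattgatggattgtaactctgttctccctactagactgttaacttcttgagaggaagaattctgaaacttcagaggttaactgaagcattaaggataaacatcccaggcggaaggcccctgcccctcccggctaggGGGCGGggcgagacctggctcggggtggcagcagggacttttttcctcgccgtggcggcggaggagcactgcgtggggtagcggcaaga
The *Kmt2c* promoter held 12 GC boxes, some of them overlapping, and 48 CG dinucleotides, more than 99.8% of the 32851 promoters of the table. *Wdr82* had 3 GC boxes and 24 CG dinucleotides, *Setd1a* had 0 and 25, and *Kdm5b* had 1 and 13. A GC box was present in 32.7% of all promoters of that length, and the median promoter held 6 CG dinucleotides. None of the 4 sequences held a CCAAT box (CCAAT, found in 33.8% of all promoters), a TATA box (TATAAA, 12.4%) or an E-box (CACGTG, 6.02%) on either strand. Of the 4, *Kdm5b* had the fewest CG dinucleotides, though still more than 68.5% of all promoters. *Kmt2a*, also lower in GO1 but under 10 CPM and not called, had 29 CG dinucleotides and 4 GC boxes. No contrast between rising and falling genes is drawn from so few promoters. A RefSeq promoter was matched for 7 of the 10 genes, and not for *Kmt2b*, *Setd1b* or *Kdm5a*. Which start sites the oocytes used was not measured by these counts.

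Between NGO and GO1, 9 of the 10 genes reached 10 CPM in 1 of the stages. Of these 9, *Kmt2c*, *Setd1a* and *Wdr82* rose, where 20.6% of all 8527 genes tested rose, and *Kdm5a* and *Kdm5b* fell, where 25.7% of all genes fell. The median log2 ratio of GO1 over NGO was 0.92 over the 9 genes and -0.15 over all genes tested. Few of the 10 genes were called in the later steps by sums. From GO1 to GO2, *Setd1a* alone of 8 tested fell (3.14% of 7356 genes called in either direction). That call was lost with both other scalings, with equal cell numbers and in both means over cells, and the number of genes called in this step ranged from 0 to 5 over the settings, with 4 in the mean over cells and 3 without the 10 deepest cells. The share of all genes called was not computed under those other settings. From GO2 to GO3 (4.35% of 7334 genes called) and from GO3 to FGO (5.96% of 7622 genes called), 0 of 8 passed the limits. Between NGO and FGO, *Setd1a* was higher (11.3% of 8132 genes were) and *Kdm5a* and *Kdm5b* were lower (16% were), out of 9 tested. *Kmt2c*, *Dpy30* and *Wdr82* stand in a list of GO1 genes and *Kdm5a* in a list of NGO regulators that the study drew from these same cells, so that their direction is not independent evidence.

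**Figure D1:**
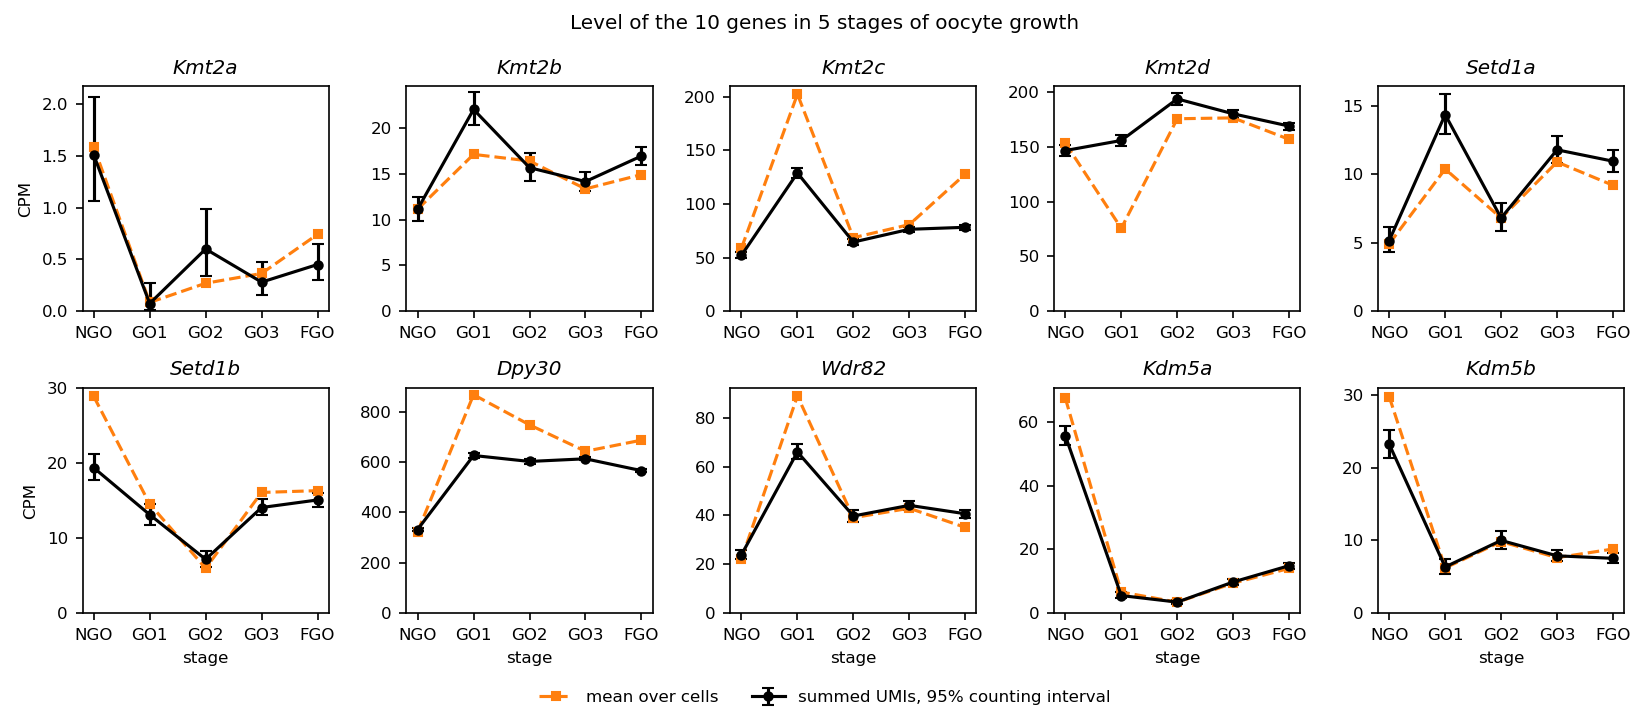
CPM of each of the 10 genes (vertical axis, from 0) in the 5 stages (horizontal axis); black points are summed UMIs with 95% counting intervals and orange squares are means over cells. *Kdm5a* and *Kdm5b* start at 55.6 and 23.3 CPM in NGO and lie at 14.9 CPM or below afterwards. The sum and the mean over cells separate, among others, for *Kmt2b*, *Kmt2c*, *Kmt2d*, *Setd1a*, *Dpy30* and *Wdr82* in GO1, for *Kmt2c* in FGO and for *Setd1b* in NGO.

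*Kdm5a* (NCBIM37 chromosome 6, 120314117 to 120394592, plus strand) was the most changed of the 10 genes that reached 10 CPM. It stood at 55.6 CPM (52.7 to 58.6) in NGO, 5.50 CPM (4.64 to 6.46) in GO1, 3.44 CPM (2.75 to 4.25) in GO2, 9.76 CPM (8.91 to 10.7) in GO3 and 14.9 CPM (13.9 to 15.8) in FGO. The level was thus lowest in GO2 and by value higher in GO3 and FGO, at every stage far from that of NGO, and each pair of neighbours in the order of levels differed beyond counting error. In single NGO cells it ranged from 6.54 to 318 CPM with a median of 62.8, and in single GO1 cells from 0 to 71.6 with a median of 0. Of the 51 GO1 cells, 50 lay below the NGO median and 38 below the lowest NGO cell. Among cells with at least 100000 UMIs, all 27 GO1 cells lay below the NGO median and 20 below the lowest NGO cell. The fall from NGO to GO1 was 10.1-fold (8.53 to 12.1). The median single-cell level was 1.16 CPM in GO2, 8.91 CPM in GO3 and 12.7 CPM in FGO. From GO2 to GO3 the level was 2.83-fold higher (2.25 to 3.61), but it remained just under 10 CPM in GO3 and was not called. In FGO it was 3.74-fold lower than in NGO (3.44 to 4.07), and all 56 FGO cells lay below the NGO median. The first 276 bases of the gene overlap *Ccdc77* on the other strand, and since the use of strand in the counting is not stated in the sources used here, reads from that stretch are uncertain.

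*Kdm5b* (chromosome 1, 136456748 to 136529454, plus strand) fell as well, and lay near or below 10 CPM from GO1 on. Its level was 23.3 CPM (21.4 to 25.2) in NGO, 6.35 CPM (5.44 to 7.39) in GO1, 10.01 CPM (8.81 to 11.3) in GO2, 7.89 CPM (7.13 to 8.71) in GO3 and 7.54 CPM (6.89 to 8.24) in FGO. In the order of levels, GO3 and FGO, and FGO and GO1, did not differ beyond counting error. Single cells ranged from 0 to 97.3 CPM in NGO (median 22.7) and from 0 to 40.4 in GO1 (median 0), so the 2 stages overlapped, with 44 of 51 GO1 cells below the NGO median. Among cells with at least 100000 UMIs the medians were 18.65 CPM in NGO and 5.11 CPM in GO1. Of these 27 GO1 cells, 23 lay below the NGO median. The fall was 3.66-fold (3.08 to 4.37) from NGO to GO1 and 3.08-fold (2.73 to 3.49) from NGO to FGO.

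The 2 demethylase genes changed their balance during growth. *Kdm5a* supplied 70.5% (68.5 to 72.5, exact Clopper-Pearson interval) of the UMIs of the pair in NGO, 46.4% (40.8 to 52.03) in GO1, 25.6% (21.01 to 30.6) in GO2, 55.3% (51.9 to 58.6) in GO3 and 66.3% (63.8 to 68.8) in FGO. The share is free of the scaling to stage totals, and it dipped in GO2, where *Kdm5a* was lowest. With each cell thinned to 20000 UMIs the shares of NGO and GO1 were 56.9% and 66.7%, the opposite order, with 41 and 8 *Kdm5a* UMIs beside 31 and 4 of *Kdm5b*. Such shares are used to compare stages with each other, and a larger share of the UMIs is not read as a larger amount of RNA of that gene. Against the 6 methyltransferase genes, the pair gave 33.4 UMIs (31.8 to 35.2) per 100 methyltransferase UMIs in NGO and 3.54 (3.16 to 3.97) in GO1, a ratio that was 9.43-fold higher in NGO (8.37 to 10.7). It was 4.66 in GO2, 5.95 in GO3 and 7.71 (7.30 to 8.14) in FGO, which was 2.18-fold above GO1 (1.92 to 2.46) and 4.33-fold below NGO (4.05 to 4.64). With other weightings of the cells, the ratio of NGO to GO1 was 7.82 to 9.38.

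**Figure D2:**
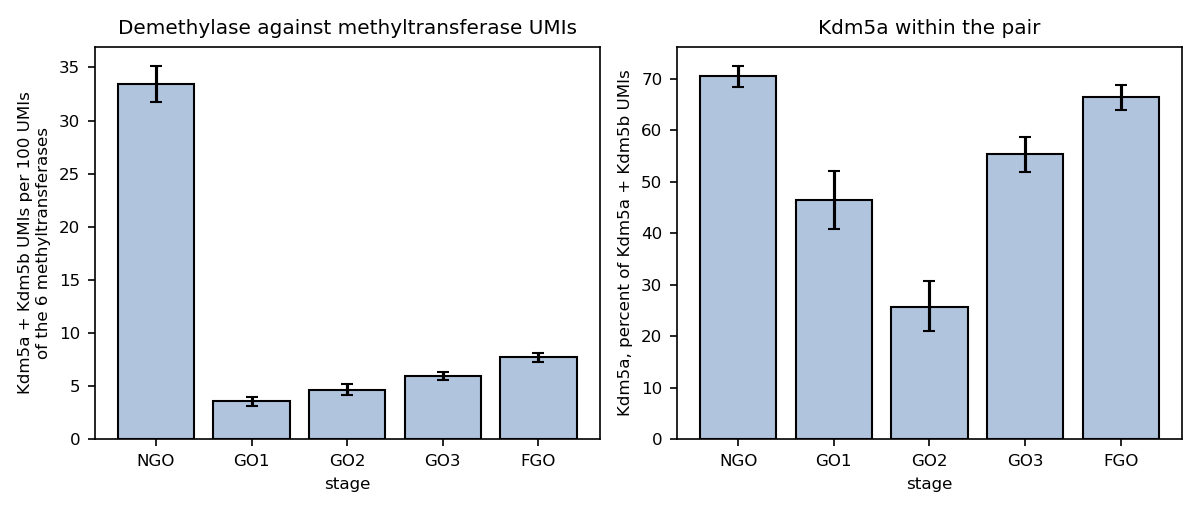
Left, *Kdm5a* and *Kdm5b* UMIs per 100 UMIs of the 6 methyltransferase genes; right, *Kdm5a* UMIs in percent of the pair; bars are sums over the cells of each of the 5 stages and error bars are 95% counting intervals. The left bars drop from 33.4 in NGO to 3.54 in GO1 and reach 7.71 in FGO, and the right bars dip to 25.6% in GO2.

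*Kmt2c* (chromosome 5, 24777612 to 25004601, minus strand; annotated there as Mll3) encodes a methyltransferase of enhancers. Its level was 52.1 CPM (49.3 to 55.0) in NGO, 128.8 CPM (124.6 to 133.2) in GO1, 64.5 CPM (61.4 to 67.7) in GO2, 76.3 CPM (73.9 to 78.8) in GO3 and 78.2 CPM (76.1 to 80.4) in FGO. GO1 stood alone at the top, and GO3 and FGO did not differ beyond counting error. From NGO to GO1 it rose 2.47-fold (2.32 to 2.64), and the level in GO2 was 1.999-fold lower than in GO1 (1.88 to 2.12), just short of the limit and so not called. Single cells ranged from 19.5 to 203.8 CPM in NGO (median 48.9) and from 0 to 1094 in GO1 (median 111.6). The GO1 cells were thus widely spread, with 44 of 51 above the NGO median and 18 above the highest NGO cell. The mean over cells was 202.2 CPM in GO1 against 58.8 in NGO and 68.5 in GO2, and by that measure the level was 3.44-fold higher in the highest stage than in the lowest. In FGO the mean over cells, 127.8 CPM, exceeded the sum and the median of 64.4 CPM, with 1 cell at 1326 CPM. With 26 cells in every stage the rise from NGO to GO1 was 0.98 on the log2 scale, just short of a call. The annotation places 3 pseudogenes inside the gene.

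*Kmt2d* (chromosome 15, 98662100 to 98701614, minus strand; Mll2 in the annotation, a name that has also been used for *Kmt2b*) encodes the close relative of KMT2C. By sums its level was nearly flat, at 146.6 CPM (141.9 to 151.4) in NGO, 155.8 CPM (151.1 to 160.6) in GO1, 193.7 CPM (188.3 to 199.3) in GO2, 180.1 CPM (176.4 to 183.8) in GO3 and 168.9 CPM (165.7 to 172.1) in FGO, and 0 of the 5 steps was called. Single cells gave another picture of GO1. They ranged from 78.7 to 252.9 CPM in NGO (median 151.2) and from 0 to 479 in GO1 (median 44.7), and 43 of 51 GO1 cells lay below the NGO median and 34 below the lowest NGO cell. The 10 deepest GO1 cells held *Kmt2d* at 180.8 CPM and the other 41 at 52.9 CPM, whereas the 10 deepest NGO cells, at 148.8 CPM, lay near the 146.6 CPM of all NGO cells. The mean over cells was 153.4 CPM in NGO and 75.7 CPM in GO1. Of the 27 GO1 cells with at least 100000 UMIs, 17 lay below the lowest NGO cell of that depth. The direction from NGO to GO1 depended on the weight given to the deepest cells, with log2 ratios from -1.46 to 0.25 over 7 alternatives, 4 of them opposite to the sum and 3 of these 4 called lower. In GO2 the single-cell median was 164.7 CPM, and 24 of 26 GO2 cells lay above the GO1 median.

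In GO1, then, *Kmt2c* and *Kmt2d* differed in how their UMIs were spread over cells of different depth. *Kmt2c* stood at 120.2 CPM in the 10 deepest GO1 cells and 164.3 CPM in the other 41. As a share of the UMIs of the 6 methyltransferase genes, *Kmt2c* went from 22.1% in NGO to 38.5% (37.5 to 39.6) in GO1 and 22.3% in GO2, and *Kmt2d* from 62.2% to 46.6% (45.6 to 47.7) and 67.2%. Which of the 2 held the larger share in GO1 turned with the weight of the cells. Without the 10 deepest cells of each stage *Kmt2c* held 65.5% and *Kmt2d* 21.1% in GO1, and in the mean over cells 63.2% and 23.7%, whereas in NGO the mean over cells gave 22.7% and 59.3%. In GO3 and FGO the shares by sums were 25.7% and 26.9% for *Kmt2c* and 60.7% and 58.1% for *Kmt2d*.

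**Figure D3:**
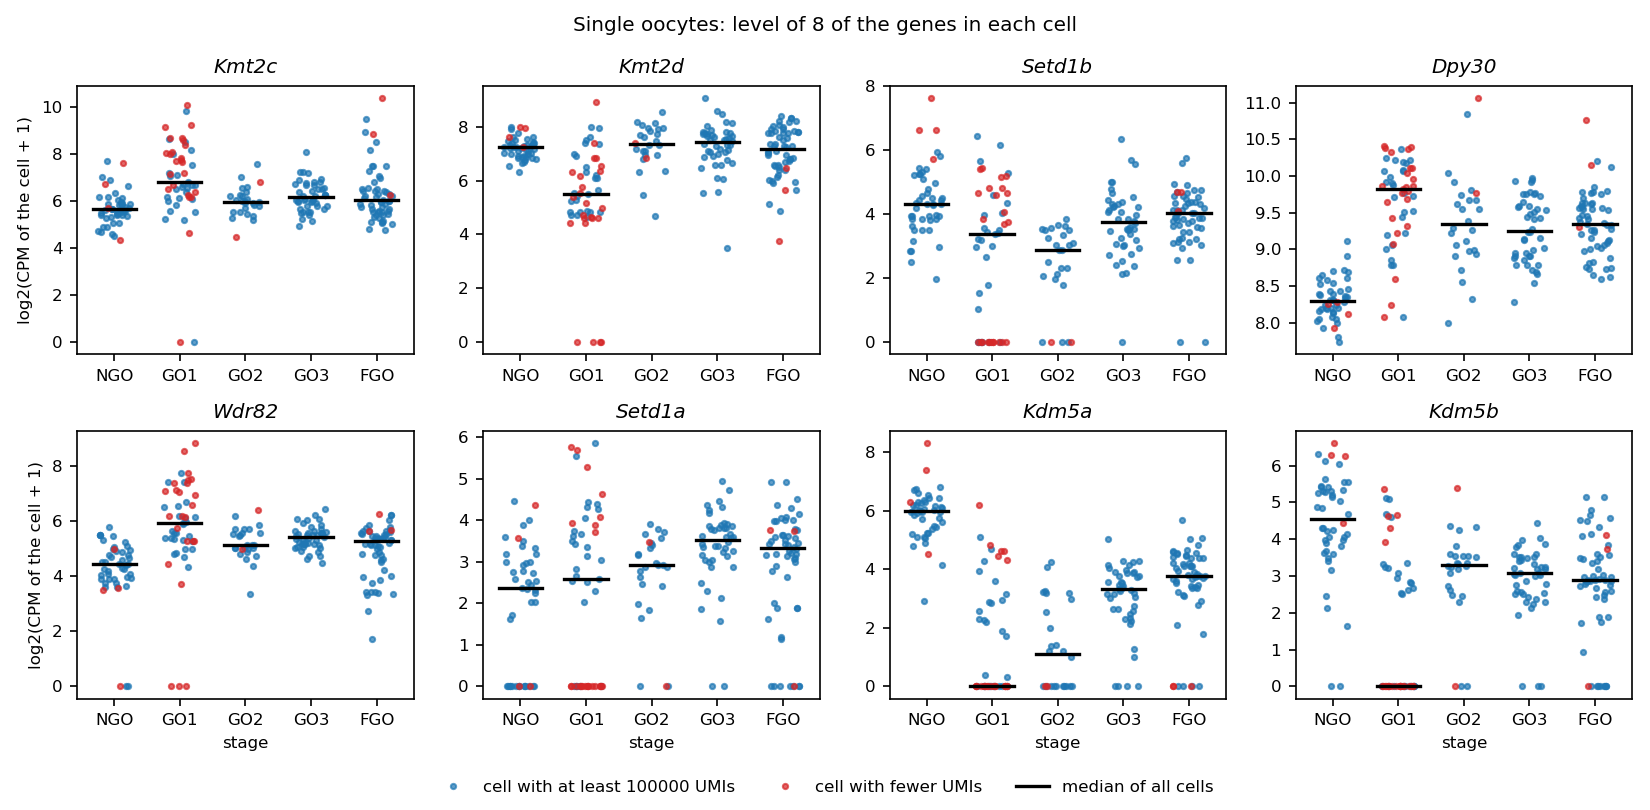
Each point is 1 oocyte, with log2(CPM of the cell + 1) on the vertical axis and the 5 stages on the horizontal axis, for 8 of the 10 genes; blue cells have at least 100000 UMIs, red cells fewer, and the black line is the median of all cells of the stage. GO1 holds 24 of the shallow cells; nearly all of its *Kdm5a* values lie below the NGO median, and 43 of 51 do for *Kmt2d*.

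*Kmt2b* (chromosome 7, 31353877 to 31373745, minus strand; annotated as Wbp7), which encodes the enzyme required for the H3K4me3 gain of growing oocytes, was low in all stages. It was measured at 11.2 CPM (9.89 to 12.5) in NGO, 22.1 CPM (20.3 to 23.9) in GO1, 15.7 CPM (14.2 to 17.3) in GO2, 14.2 CPM (13.1 to 15.3) in GO3 and 16.96 CPM (15.97 to 18) in FGO. The ratio of GO1 to NGO, 1.98-fold (1.71 to 2.29), stayed just under the limit by sums and passed it under both other scalings. The 10 deepest GO1 cells stood at 24.4 CPM and the other 41 at 12.2 CPM, and the mean over cells was 17.1 CPM in GO1 and 11.2 CPM in NGO. The GO1 cells had a median of 9.46 CPM, below the NGO median of 10.2 CPM, and 23 of 51 were above that NGO median. Among cells with at least 100000 UMIs the order was the other way, with medians of 12.2 CPM in GO1 and 9.84 CPM in NGO. Of these 27 GO1 cells, 16 lay above the NGO median.

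*Setd1a* (chromosome 7, 134920184 to 134943636, plus strand) encodes a catalytic subunit of the SETD1 complexes. Its level was 5.16 CPM (4.31 to 6.13) in NGO, 14.4 CPM (12.9 to 15.9) in GO1, 6.81 CPM (5.82 to 7.91) in GO2, 11.8 CPM (10.8 to 12.8) in GO3 and 10.9 CPM (10.2 to 11.8) in FGO. It rose 2.78-fold (2.27 to 3.42) from NGO to GO1, fell 2.11-fold (1.76 to 2.54) from GO1 to GO2 and was 2.12-fold higher (1.76 to 2.58) in FGO than in NGO. Its UMIs were few, between 130 and 704 in a stage, and the stages overlapped widely cell by cell. NGO cells ranged from 0 to 21.2 CPM (median 4.12) and GO1 cells from 0 to 57.1 (median 4.97), with 28 of 51 GO1 cells above the NGO median. Among cells with at least 100000 UMIs the medians were 4.12 CPM in NGO and 7.83 CPM in GO1. Of these 27 GO1 cells, 20 lay above the NGO median. The 10 deepest GO1 cells stood at 15.8 CPM and the other 41 at 8.40 CPM. These calls depended on the setting. The log2 ratio of GO1 over NGO was 1.48 by sums, 0.68 without the 10 deepest cells and 0.50 with each cell thinned to 20000 UMIs, and that of FGO over NGO was 1.08 by sums and 0.37 to 0.99 wherever the weighting or depth of cells was changed. The fall to GO2 was not called with either other scaling, with equal cell numbers, in the mean over cells or without the 10 deepest cells, and it turned in direction in thinned cells. The values of thinned cells rest on few UMIs, 7 in NGO, 11 in GO1, 8 in GO2 and 11 in FGO. In the annotation, 14515 bases of the gene are shared with *Hsd3b7* on the same strand, so reads could be split between these 2 genes.

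*Setd1b* (chromosome 5, 123592202 to 123617444, plus strand), the paralogue of *Setd1a*, was highest in NGO, where *Setd1a* was lowest, and the values of both genes were lower in GO2 than in GO1 or GO3. It stood at 19.4 CPM (17.7 to 21.2) in NGO, 13.1 CPM (11.8 to 14.6) in GO1, 7.17 CPM (6.16 to 8.30) in GO2, 14.1 CPM (13.1 to 15.2) in GO3 and 15.1 CPM (14.2 to 16.1) in FGO. The lowest level was in GO2, and in the order of levels FGO and GO3, and GO3 and GO1, did not differ beyond counting error. No step by sums reached 2-fold, the nearest being GO3 over GO2 at 1.96-fold (1.66 to 2.33). NGO cells ranged from 2.94 to 196.7 CPM (median 18.9) and GO1 cells from 0 to 85.9 (median 9.28), and 36 of 51 GO1 cells lay below the NGO median. An annotated lincRNA, *Gm17627*, covers the whole gene on the other strand, and the counts of the 2 cannot be told apart if strand was not used.

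*Kmt2a* (chromosome 9, 44611438 to 44689379, minus strand; annotated as Mll1) was close to the limit of detection. NGO cells held 38 UMIs of it (1.51 CPM), GO1 cells 2 (0.075 CPM), GO2 cells 15 (0.60 CPM), GO3 cells 14 (0.28 CPM) and FGO cells 29 (0.45 CPM). NGO was the highest stage, with a ratio over GO1 of 20.2 that had a wide counting interval (5.21 to 173), and in the order of levels GO2 and FGO, FGO and GO3, and GO3 and GO1 did not differ beyond counting error. The gene did not reach 10 CPM in any stage and was not called.

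Among the complex subunits, *Dpy30* (chromosome 17, 74698814 to 74723284, minus strand) separated NGO from the other stages most clearly cell by cell. By sums it stood at 332.2 CPM (325.1 to 339.4) in NGO, 626.4 CPM (616.9 to 635.9) in GO1, 602.7 CPM (593.1 to 612.4) in GO2, 613.3 CPM (606.5 to 620.2) in GO3 and 566.2 CPM (560.4 to 572.1) in FGO. From GO1 on the level was nearly flat, and GO2 and GO3 did not differ beyond counting error. The ratio of GO1 to NGO was 1.89-fold (1.84 to 1.94) by sums, short of the limit, and 1.02 to 1.57 on the log2 scale, past it, under all 7 alternatives of scaling, weighting or depth. Single cells ranged from 212.4 to 551.8 CPM in NGO (median 312.8) and from 268.0 to 1362 in GO1 (median 904.8). Of 51 GO1 cells, 48 lay above the NGO median and 41 above the highest NGO cell, and among cells with at least 100000 UMIs 26 of 27 and 21 of 27 did. All 56 FGO cells lay above the NGO median. The mean over cells was 323.4 CPM in NGO and 868.1 CPM in GO1, where the 10 deepest cells stood at 544.8 CPM and the other 41 at 961.6 CPM.

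*Wdr82* (chromosome 9, 106073260 to 106094747, plus strand) rose 2.76-fold (2.52 to 3.03) from NGO to GO1 and was called in this step under every setting tried. It stood at 23.9 CPM (22.02 to 25.9) in NGO, 65.97 CPM (62.9 to 69.1) in GO1, 39.8 CPM (37.3 to 42.3) in GO2, 44.1 CPM (42.3 to 46) in GO3 and 40.7 CPM (39.1 to 42.3) in FGO. Single cells ranged from 0 to 53.4 CPM in NGO (median 20.5) and from 0 to 456 in GO1 (median 59.7), with 46 of 51 GO1 cells above the NGO median and 27 above the highest NGO cell. The 10 deepest GO1 cells and the other 41 gave similar values, 66.7 and 62.9 CPM. From GO1 to GO2 the level by sums was 1.66-fold lower (1.53 to 1.79), short of the limit, and FGO and GO2 did not differ beyond counting error. In the mean over cells it was 88.9 CPM in GO1 and 39.1 CPM in GO2. Over the alternatives the log2 ratio of GO2 over GO1 reached -1.30, past 2-fold. The gene hosts the microRNA *Mirlet7g*.

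**Figure D4:**
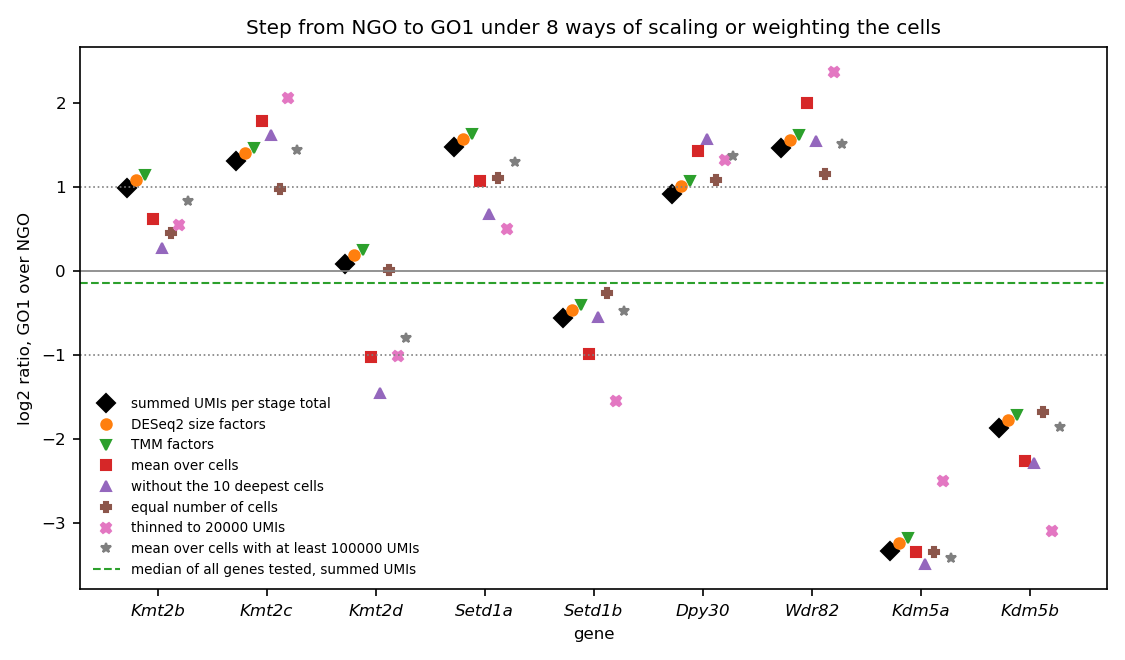
Log2 ratio of GO1 over NGO (vertical axis) for the 9 genes with at least 10 CPM in 1 of these stages, under 8 ways of scaling or weighting the cells (symbols); dotted lines mark 2-fold and the dashed green line the median of all genes tested, -0.15. *Kdm5a*, *Kdm5b* and *Wdr82* stay outside the 2-fold lines in every setting, and *Kmt2d* lies on both sides of 0.

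Other genes of H3K4 methylation were examined in 4 lists of 35 genes, of which 30 reached 10 CPM in NGO or GO1 and 5 did not. From NGO to GO1, 12 rose and 5 fell, or 40% and 16.7% of the 30, where 20.6% and 25.7% of all genes tested did. The median log2 ratio was 0.43 over the 30 and -0.15 over all genes. Of the core subunits that all the complexes share, *Ash2l* fell from 187 to 69.4 CPM (2.70-fold, 2.55 to 2.85). *Wdr5* went from 195.6 to 115.4 CPM and *Rbbp5* from 42.1 to 36.6 CPM, neither called. Together with *Dpy30*, the 4 genes of the core module thus did not move in 1 direction. Among subunits particular to KMT2C and KMT2D complexes, *Kdm6a*, an H3K27 demethylase, rose 6.31-fold (5.48 to 7.29), from 8.89 to 56.1 CPM, and the coactivator *Ncoa6* rose 4.46-fold (3.86 to 5.15), from 9.25 to 41.2 CPM. Of the same class, *Pagr1a* went from 123.9 to 67.7 CPM and *Paxip1* from 12.02 to 16.2 CPM, neither called; these 2 genes were named after their values were seen. *Bod1l* and *Bod1*, of the SETD1 complexes, rose 4.91-fold and 3.11-fold, and *Psip1*, which tethers KMT2A complexes to chromatin, rose 2.70-fold. In all, 5 of the 13 other subunits tested rose and 1 fell, and their median log2 ratio of -0.19 lay near the -0.15 of all genes tested, of which 20.6% rose and 25.7% fell.

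The other demethylases moved both ways. *Kdm1b*, a demethylase of H3K4me1 and H3K4me2 that growing oocytes need to set up maternal imprints, fell 3.72-fold (3.56 to 3.89), from 360.7 to 96.9 CPM, while its relative *Kdm1a* rose 2.22-fold (1.88 to 2.62), from 8.21 to 18.2 CPM. *Kdm2b* rose 4.27-fold (3.92 to 4.66), from 25.4 to 108.3 CPM. *Kdm5c*, the third expressed gene of the *Kdm5* family, stayed at 12.6 CPM in NGO and 11.9 CPM in GO1, a ratio of 0.95 (0.81 to 1.11), in contrast to the called falls of *Kdm5a* and *Kdm5b*. *Riox1* was 19.7-fold lower (10.5 to 41.9) but under 10 CPM in both stages. Of the 3 other methyltransferases tested, *Prdm9*, the H3K4 methyltransferase that sets meiotic recombination sites, fell 12.7-fold (9.29 to 17.9), from 20 to 1.57 CPM, and *Smyd2* fell 7.93-fold (7.08 to 8.91). *Smyd3* went from 103.3 to 82.8 CPM and was not called.

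Of the 10 genes whose proteins bind H3K4me3, 5 rose and 1 fell, with a median log2 ratio of 0.92, where 20.6% of all genes tested rose and 25.7% fell at a median of -0.15. *Spin1*, abundant in oocytes, rose 3.21-fold (3.18 to 3.24), from 2279 to 7324 CPM. *Ing1* rose 4.15-fold and *Ing2* 3.52-fold, and *Taf3*, a TFIID subunit, and *Bptf*, a subunit of the NURF remodeller, rose 2.46-fold and 2.29-fold. *Ing4* fell 2.18-fold (1.79 to 2.66), from 12.5 to 5.76 CPM.

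**Figure D5:**
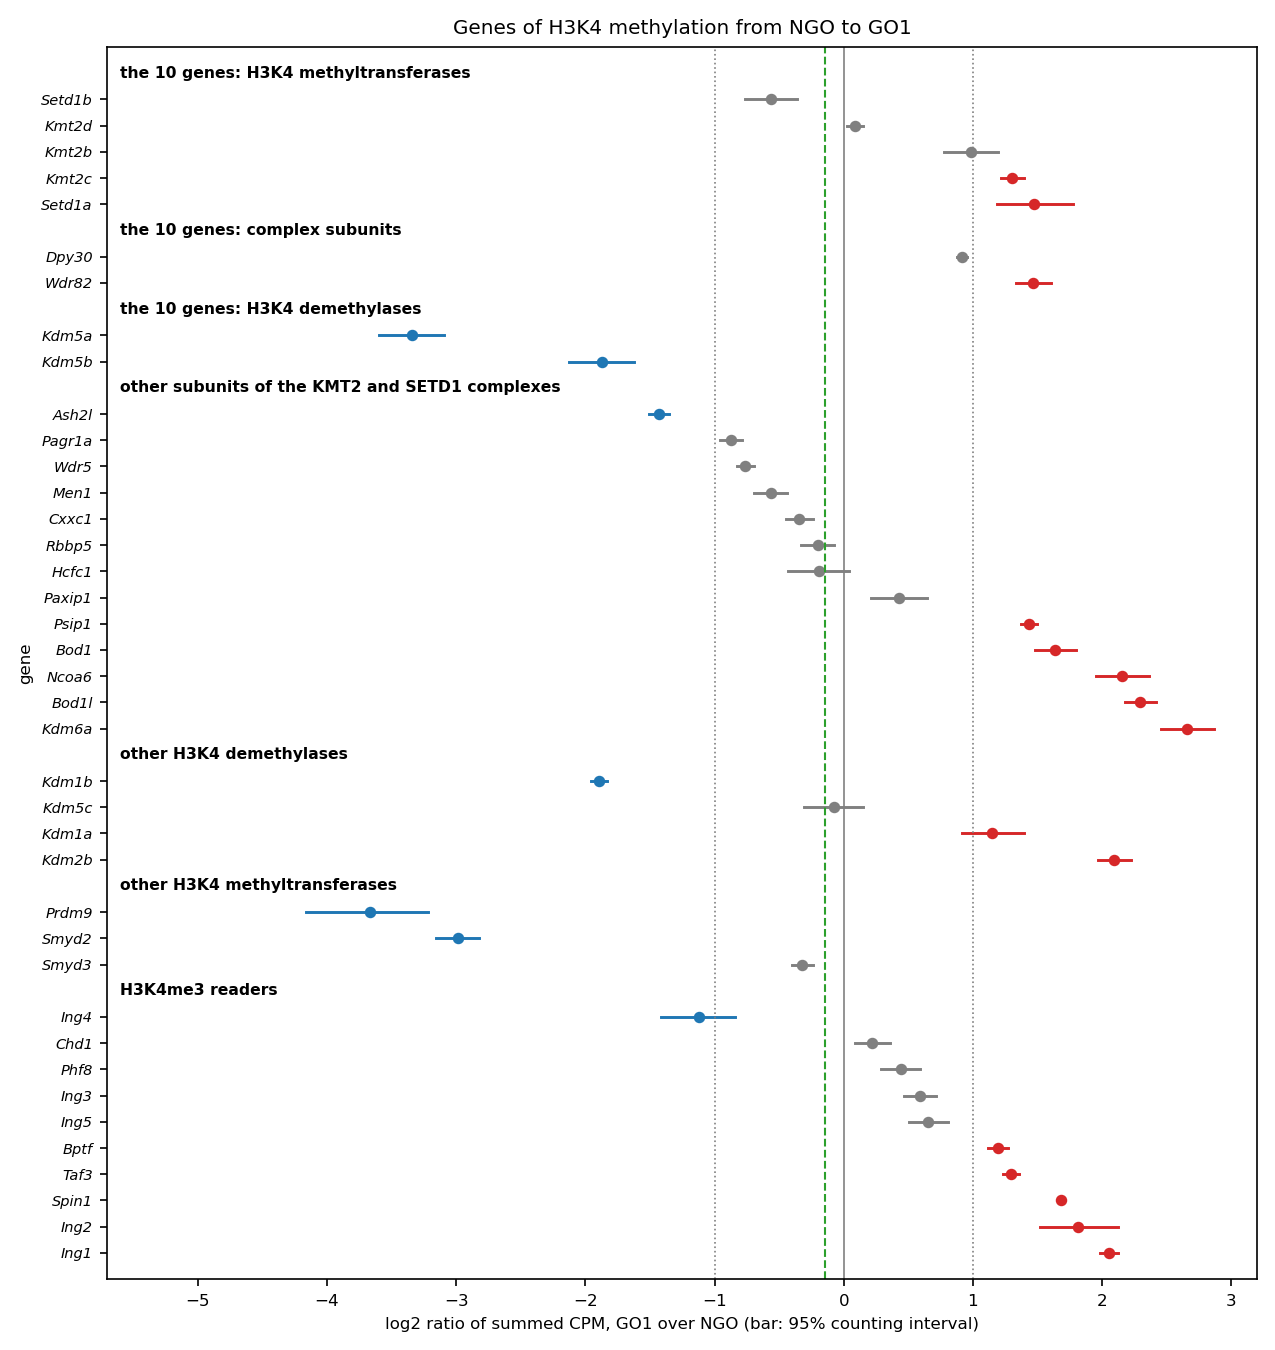
Log2 ratio of summed CPM, GO1 over NGO (horizontal axis), of each gene (vertical axis) with at least 10 CPM in 1 of the 2 stages, grouped by list; red genes were called higher, blue lower, grey neither, bars are 95% counting intervals, dotted lines mark 2-fold and the dashed green line is the median of all genes. *Kdm5a*, *Prdm9* and *Smyd2* lie farthest left, and *Kdm6a* farthest right.

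Among the genes of the set that reached 10 CPM, *Kdm5a*, *Kdm5b* and *Setd1a* had the largest ratios of highest to lowest stage sum, at 16.1, 3.66 and 2.78. *Wdr82* followed closely at 2.76. In the mean over cells the ratio of *Setd1a* was 2.215, below *Setd1b* (4.84), *Wdr82* (4.02), *Kmt2c* (3.44), *Dpy30* (2.68) and *Kmt2d* (2.33). The genes most like the first 3 by sums were sought among 8671 genes by the root mean square difference of centred log2(CPM + 1) over the 5 stages. Nearest to *Kdm5a* were *Nop2* (0.078), *D030056L22Rik* (0.093) and *1700123O20Rik* (0.11). *Nop2* stood at 51.3, 5.34, 3.84, 9.43 and 14.8 CPM from NGO to FGO, and thus shared the low in GO2 and the later increase. *Kdm5b*, the nearest of the 10, was at 0.89. Nearest to *Kdm5b* were *Ppp3ca* (0.13), *Shox2* (0.13) and *Endod1* (0.14), and nearest to *Setd1a* were *Bnc1* (0.037), *Lig4* (0.060) and *Fam214a* (0.062). *Kmt2c* was the closest of the 10 to *Setd1a*, at 0.21. These likenesses rest on 5 stage sums each and are a description.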

How the data were processed

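Single-cell RNA-seq of 223 mouse oocytes of 5 stages was analysed, in 4 libraries. According to the study's methods, the authors classified reads by cell barcode, aligned them with Tophat to the mm9 transcriptome, removed duplicates by UMI and deposited raw UMI counts per gene and cell, without normalization, for cells passing their filter. The chromatin data of the series were not analysed here, and no doublet caller was run on the hand-picked oocytes. 0 pairs of cells had identical counts.

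UMIs were summed per stage and divided by the stage total. A change was called from 2-fold upwards, given 10 CPM or more in 1 of the stages, the higher. Intervals at 95% are exact Poisson for levels, exact binomial for ratios and exact Clopper-Pearson for shares. Intervals cover counting error only. All 10 genes are named. Of the pathway lists, genes past the call rule from NGO to GO1 and up to 5 others per list may be named. The 3 nearest genes are also named for the 3 members with the largest ratio of highest to lowest stage sum. The members, lists and rules were chosen with earlier results of these data known.

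Alternatives were DESeq2 1.42.0 size factors, edgeR 4.0.16 TMM factors (scaling only), the mean over cells, sums without the 10 deepest cells, 26 cells per stage, cells thinned to 20000 UMIs, no filter, 50 CPM, 1.5-fold and, added after seeing the data, the mean over cells with at least 100000 UMIs. The call rule was run on simulated stage sums with counting error only and changes larger than the limit. The simulation had no variation between cells or in depth, so it does not bear on calls that turn with the weighting of cells. Gene positions are from GENCODE vM1 of NCBIM37, the build of mm9, counted from 1, and promoters from RefSeq. Software was R 4.3.3 and Python 3.11.15 with scipy 1.17.1, pandas 2.3.3, numpy 2.4.6 and matplotlib 3.10.9.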

Additional observations from a re-analysis of the deposited data

How the results depend on the processing

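The fall of *Kdm5a* and the rise of *Wdr82* from NGO to GO1 were called under every setting tried, and that of *Kdm5b* under all but the 50 CPM limit. In this step 5 of 9 genes tested were called by sums, where 3951 of all 8527 genes were. The count was 3 with a limit of 50 CPM and 5 to 7 elsewhere. The share of all genes called was computed only for sums with the 2-fold and 10 CPM limits. Counts under the other settings therefore have no such share beside them and describe the settings only. From GO1 to GO2, where 1 was called, the count was 0 with DESeq2 size factors, TMM factors or 50 CPM, 2 with thinned cells or no filter, 3 without the 10 deepest cells or in the mean over cells with at least 100000 UMIs, 4 in the mean over cells and 5 at 1.5-fold. *Setd1a*, called lower there, had a log2 ratio of 0.51 in thinned cells, from 11 UMIs in GO1 and 8 in GO2. From GO2 to GO3, where 0 were called, it was 1 with TMM factors, thinned cells and both means over cells, and 2 without the 10 deepest cells, with no filter or at 1.5-fold. From GO3 to FGO, also 0, it was 1 in thinned cells and at 1.5-fold. From NGO to FGO, 3 were called, 5 in thinned cells, 1 at 50 CPM and 7 at 1.5-fold.

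The *Kdm5a* share of the pair moved in NGO to 73.1% with equal cell numbers and 56.9% in thinned cells, in GO1 to 66.7% in thinned cells (above NGO, opposite to the sums), in GO2 to 30.95% without the 10 deepest cells and 0% in thinned cells, where *Kdm5a* had 0 UMIs, and in FGO to 61.4% in the mean over cells and 62.8% in cells with at least 100000 UMIs. The cause of these shifts was not tested. The pathway count was 17 and ranged from 12 to 21. DESeq2 and TMM scaling shifted the median gene by 0.10 and 0.16 from NGO to GO1, 0.19 and 0.17 from GO1 to GO2 and -0.15 and -0.09 from GO2 to GO3 (log2), and from NGO to FGO by 0.08 and 0.17. No paired analysis was possible because the columns do not give the library of a cell, and for the same reason no library could be left out. Depth limits *Kmt2a*, *Setd1a*, the *Kdm5* genes after NGO and single-cell zeros in GO1.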
